A study of Mus musculus with 6 samples.

Results

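The 10 genes described here belong to the unfolded protein response and the integrated stress response: Atf4, Ddit3, Xbp1, Trib3, Chac1, Asns, Herpud1, Sdf2l1, Pdia4 and Creld2. They were chosen by symbol, all 10 were among the 27998 genes of the deposited gene table, and their raw counts were read in 6 single-cell libraries of mouse brain. The mice were C57BL/6, aged 6 to 8 weeks, and were studied 24 h after surgery. Strain, age and time were the same in both groups, which differed in the surgery: 3 libraries were from sham and 3 from MCAO. MCAO is middle cerebral artery occlusion, which closes a main artery of the brain and is a model of ischemic stroke. The labels give no genetic alteration, and do not say whether a library came from 1 animal, from pooled animals or from a given side of the brain. The p-values therefore measure the spread between these libraries only, which may be technical.

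Secreted and membrane proteins fold in the endoplasmic reticulum (ER). When unfolded protein builds up there, the sensor kinase PERK phosphorylates the translation factor eIF2α, the endonuclease IRE1 splices the mRNA of the transcription factor Xbp1, and ATF6 is cut to release a transcription factor. Lack of amino acids, viral RNA and other stresses reach the same eIF2α step through other kinases, which is why that arm is called the integrated stress response. Phosphorylated eIF2α lowers translation in general but raises translation of Atf4 mRNA, so that the mRNA level of Atf4 shows only part of its activity. The counts are per gene and do not tell spliced from unspliced Xbp1. In the ischemic brain this pathway is known for its activation in neurons, but no cluster of cells in these libraries was named as mature neurons, and the cells described are glia, blood vessel cells, immune cells, and the epithelia of the ventricles.

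These regulators act through short promoter elements, so the stretches that hold one are shown for 4 of the genes. The ER stress response element (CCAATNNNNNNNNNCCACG) and its variant, element II (ATTGGNCCACG), are known sites of ATF6 and XBP1, and the amino acid response element (TGATGNAAN) is a known site of ATF4. All 10 genes matched the RefSeq promoter table (GRCm38.p6, the assembly also called mm10), and the 250 bases before each start were searched on both strands. Each line is written 5′ to 3′ along the gene's own strand, and capitals mark the match.
Creld2, chr15:88819499-88819558, plus strand, ER stress response element in reverse: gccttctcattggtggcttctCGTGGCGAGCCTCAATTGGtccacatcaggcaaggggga
Herpud1, chr8:94386352-94386411, plus strand, element II: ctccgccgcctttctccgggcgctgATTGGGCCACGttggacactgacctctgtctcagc
Herpud1, chr8:94386290-94386349, plus strand, amino acid response element in reverse: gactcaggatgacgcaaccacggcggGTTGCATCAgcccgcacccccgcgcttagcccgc
Chac1, chr2:119351022-119351081, plus strand, amino acid response element in reverse: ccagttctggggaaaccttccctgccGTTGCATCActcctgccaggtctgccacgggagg
Asns, chr6:7693214-7693243, minus strand, amino acid response element: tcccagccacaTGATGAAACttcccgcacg

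The match began 126 bases before the start in Creld2, 52 and 113 bases before it in Herpud1, 194 in Chac1 and 23 in Asns. The 30 bases shown for Asns lie within the gene as GENCODE vM21 annotates it, whose start is further upstream than the RefSeq start; the other windows lie outside their genes. Among all 32851 promoter stretches of the same length, 0.113% held the ER stress response element, 0.0304% held element II and 3.44% held the amino acid response element. The short CCACG motif, which is the end of both ER stress elements, was in 6 of the 10 genes and in 28.3% of all promoters. The unfolded protein response element core TGACGTGG was in none of the 10 genes and in 0.563% of all promoters. For Atf4, Ddit3, Xbp1, Trib3, Sdf2l1 and Pdia4 none of the 3 longer elements was in this window, which says only that these letters are not there.

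The libraries held 25135690 to 42848023 UMIs (unique molecular identifiers, each a tag for 1 captured mRNA molecule) in 8104 to 11772 barcodes. Median UMIs per barcode were 2391 to 2471 in sham and 2883 to 3495 in MCAO. After filtering, 52658 of 58528 barcodes were kept as cells and fell into 33 clusters, of which 29 could be named from marker genes and 4, with 1342 cells, could not. The names give 15 cell classes and stand for cells that resemble the type in RNA. Between 77 and 184 barcodes were shared by any pair of libraries, 0.95% to 1.84% of the smaller one. Levels below are CPM (UMIs of a gene per 1000000 UMIs), from counts summed over the cells of a class in each library and scaled within that class, and 13 classes had at least 20 cells in every library and were tested with edgeR's quasi-likelihood test.

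Sham and MCAO cells of several classes lay in different clusters, which were made from all variable genes. Of the sham microglia, 99.2% were in cluster 3, led by P2ry12 and Gpr34, while MCAO microglia were in cluster 7 (35.9%), 8 (30.2%), 12 (24.5%) and 22 (8.6%). Sham endothelial cells were in clusters 1 (64.9%) and 4 (28.8%), and MCAO endothelial cells in clusters 2 (56.2%), 5 (30.2%) and 13 (10.4%). Astrocytes were split between cluster 17 in sham (93.4%) and 9 in MCAO (99.1%), choroid plexus epithelium between 15 (99.5%) and 10 (98.9%), and oligodendrocytes between 23 (98.9%) and 19 (99.6%). Sham monocyte-derived cells were in cluster 24 (99.3%), and MCAO ones in 14 (80.3%) and 24 (19.7%). The other classes had 1 cluster each.

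Most of the genes tested rose after MCAO in microglia, endothelial cells and astrocytes. In microglia, the resident macrophages of the brain, 8 of the 9 genes tested rose and none fell. There 30.0% of all 11700 genes tested rose and 61.8% changed in either direction. In endothelial cells, which line the vessels, 7 of 10 rose and 1, Herpud1, fell, where 24.0% of all genes rose and 46.7% changed in either direction. In astrocytes 7 of the 8 tested rose and none fell, where 11.7% of all genes rose and 21.3% changed. Trib3 in microglia and Asns in astrocytes (and in monocyte-derived cells, below) passed the filter on low counts through their MCAO libraries alone, so these genes could hardly have been lower in MCAO, and their counts add no support. With scaling by total UMIs the calls of all genes moved toward lower (2849 higher and 4675 lower in microglia, against 3508 and 3725; 876 and 1463 in astrocytes, against 1151 and 934), and 8, 7 and 7 of the genes then rose in microglia, endothelial cells and astrocytes, with Herpud1 lower in microglia as well as in endothelial cells. That scaling moved the median log2 fold change of all genes to -0.19 in microglia and -0.12 in astrocytes.

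**Figure D1:**
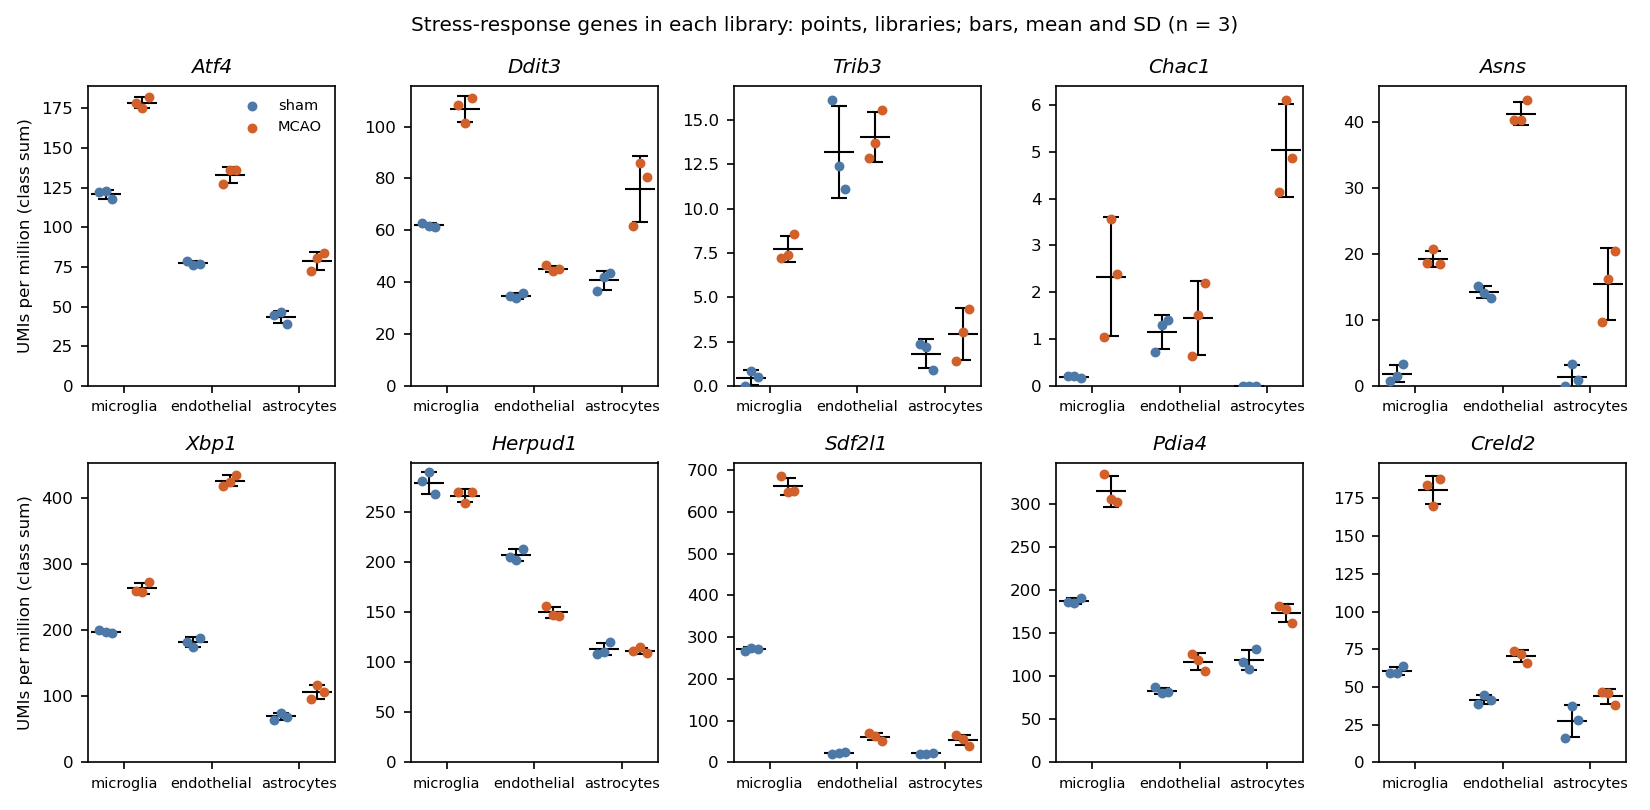
CPM of each of the 10 genes (vertical axes) in microglia, endothelial cells and astrocytes. Points are libraries, blue for sham and orange for MCAO, and black bars are the mean and SD of 3 libraries. Sham and MCAO points overlap for Herpud1 in microglia and astrocytes, for Trib3 and Chac1 in endothelial cells and for Trib3 in astrocytes, and Herpud1 in endothelial cells is the panel where MCAO lies below sham.

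Markers of other classes were also measured in these sums, and several sets moved with the groups, some up and some down. In endothelial cells the summed level of 12 astrocyte markers went from 325 to 378 CPM in sham to 611 to 736 in MCAO, with 11 of 12 higher, and that of 6 erythrocyte markers from 23.2 to 34.0 up to 339 to 621. The 9 pericyte markers (106 to 124, then 170 to 194, with 8 higher), the 10 monocyte-derived markers (45.6 to 62.7, then 102 to 147, with 9 higher) and the 10 neutrophil markers (287 to 353, then 821 to 999, with 3 higher and 2 lower) were also higher in sum there. In microglia the 12 astrocyte markers went from 389 to 439 up to 497 to 646, with 10 higher and 1 lower, and the 6 erythrocyte markers from 13.4 to 34.3 up to 141 to 559. The monocyte-derived markers in microglia went from 61.0 to 74.6 up to 146 to 192 (6 of 10 higher) and the pericyte markers from 57.5 to 81.7 up to 85.9 to 128 (8 of 9 higher). Endothelial markers in microglia went the other way, from 1439 to 1771 down to 1037 to 1335, with 6 of 12 lower and 1 higher. In astrocytes the 9 oligodendrocyte markers went from 450 to 493 up to 601 to 743, with 5 of 8 tested higher. There the 10 monocyte-derived markers went from 26.6 to 50.9 up to 105 to 137 (5 of 7 tested higher), the 6 erythrocyte markers from 9.75 to 38.9 up to 118 to 134 (4 of 4), and the 10 neutrophil markers from 157 to 308 up to 326 to 539 (2 higher and 2 lower of 7). The 13 microglia markers in astrocytes were at 992 to 1252 in sham and 1072 to 1270 in MCAO, with 2 higher and 4 lower. Depth and the mitochondrial share of UMIs also differed between the groups. Median UMIs per microglial cell were 2377 to 2467 in sham and 3355 to 4090 in MCAO. The median mitochondrial share went from 4.75% to 5.06% in sham down to 3.36% to 3.76% in MCAO astrocytes, from 2.4% to 2.56% down to 2.01% to 2.28% in endothelial cells, from 5.64% to 5.97% down to 4.09% to 4.41% in oligodendrocytes and from 6.42% to 6.89% down to 4.72% to 5.29% in smooth muscle cells. In microglia it was 1.44% to 1.56% and 1.54% to 1.71%. The part of these RNAs and of RNA quality in the results below was not tested. Depth was evened by thinning every cell to 1000 UMIs in these 3 classes. Of the 9 genes then tested in microglia 8 rose, where 2431 of 9702 genes rose and 2479 fell. In endothelial cells 7 of 9 rose and 1 fell, where 2019 of 11158 genes rose and 1800 fell. In astrocytes 4 of 7 rose, where 431 of 5105 genes rose and 311 fell.

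Atf4 (chr15:80255184-80257541) codes for the transcription factor at the centre of the integrated stress response. In microglia it was at 122, 123 and 118 CPM in the sham libraries and at 178, 175 and 182 in the MCAO libraries. The groups did not overlap, and the log2 fold change was 0.56 ± 0.05 (SE; adjusted p = 8.05e-09). In endothelial cells Atf4 went from 77.5 ± 1.29 to 133 ± 5.07 (SD, n = 3), a 1.72-fold rise, and in astrocytes from 43.4 ± 3.90 to 79 ± 5.74, a 1.83-fold rise (adjusted p = 1.08e-10 and 5.81e-06). The rise in microglia was below that in endothelial cells by 0.16 ± 0.06 on the log2 scale (adjusted p = 0.0467), a call that ended without any 1 of the 3 sham libraries or MCAO library 2 or 3 (adjusted p = 0.0633 to 0.234). Atf4 rose in 7 of 13 classes in all, and the other 6 had log2 fold changes above 0 that did not pass. Some of these calls rested on single libraries: in choroid plexus epithelium (0.50) and oligodendrocytes (0.54) leaving out sham library 1 or MCAO library 2, among others, ended the call.

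Ddit3 (chr10:127290774-127296288) codes for CHOP, a transcription factor that ATF4 induces and that is known for its part in cell death under lasting ER stress. It rose in 6 of 13 classes. In neutrophils, short-lived blood granulocytes, it was at 31.2, 75.6 and 63.7 CPM in sham and at 292, 271 and 238 in MCAO. All 3 MCAO libraries were above every sham library, and the sham values rest on 18 UMIs (log2 fold change 2.38 ± 0.33, adjusted p = 0.000105). In oligodendrocytes, the myelin-forming cells, it was at 64.8, 54.1 and 56.8 in sham and at 155, 94.0 and 168 in MCAO (1.24 ± 0.22, adjusted p = 0.00174). Microglia went from 61.9 ± 0.683 to 107 ± 4.90, a 1.72-fold rise, and astrocytes from 40.7 ± 3.67 to 75.9 ± 12.8, a 1.85-fold rise. Endothelial cells rose by 1.30-fold, from 34.8 ± 1.08 to 45.2 ± 1.16.

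Ddit3 did not pass in 7 of the 13 classes. Among these were fibroblasts (98.4 ± 20.9 in sham and 87.2 ± 20.1 in MCAO) and border macrophages (88.0 ± 24.2 and 96.7 ± 18.9). Ependymal cells (48.2 ± 9.95 and 52.3 ± 27.6) and lymphocytes (52.3 ± 17.5 and 107 ± 24.1) were also among them. No rise was measured in the mural cells of the vessels, which wrap around the endothelium. In smooth muscle cells Ddit3 was at 88.1, 90.9 and 90.0 in sham and at 79.2, 64.4 and 81.3 in MCAO, and in pericytes at 164, 95.3 and 119 in sham and 84.4, 92.4 and 60.6 in MCAO. The MCAO libraries were below the sham libraries in both classes, but neither difference passed the test (log2 fold change -0.26, adjusted p = 0.132, and -0.66, adjusted p = 0.0951), except in pericytes with scaling by total UMIs (-0.77, adjusted p = 0.0456). Set against the rise in endothelial cells, the difference of the change did pass in both classes (-0.65 ± 0.13 and -0.96 ± 0.28, adjusted p = 7.69e-05 and 0.0205). In monocyte-derived cells Ddit3 rose (0.88 ± 0.25, adjusted p = 0.0105), and the call ended without sham library 1 or 2.

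**Figure D2:**
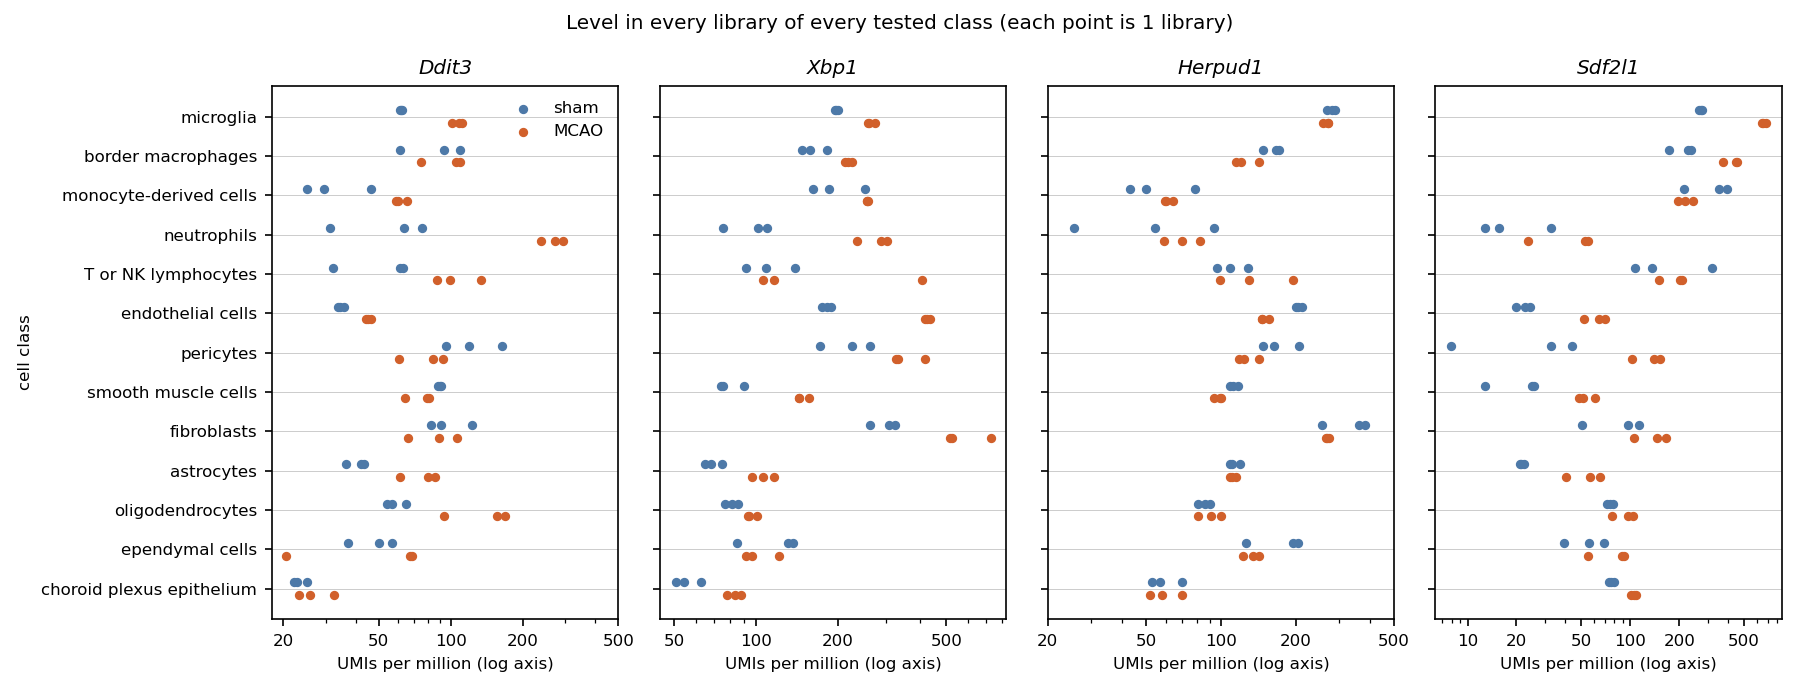
CPM (horizontal log axes) of Ddit3, Xbp1, Herpud1 and Sdf2l1 in each of 13 cell classes (vertical axis). Each point is 1 library, blue for sham and orange for MCAO. Ddit3 in neutrophils stands at 238 to 292 in MCAO, above every other class; Sdf2l1 in monocyte-derived cells overlaps between the groups; Herpud1 has no class in which the MCAO libraries lie above the sham libraries.

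The order of classes by Ddit3 level changed with the group. In sham, pericytes (126 ± 34.9) stood first, followed by fibroblasts, smooth muscle cells and border macrophages, whose ranges overlapped with that of the next class. In MCAO, neutrophils (267 ± 27.2) stood first and did not overlap with the next class, oligodendrocytes (139 ± 39.5), which overlapped with microglia and lymphocytes. Choroid plexus epithelium was lowest in both groups (23.4 ± 1.51 and 27.3 ± 4.83).

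Xbp1 (chr11:5520659-5525893) codes for the transcription factor that IRE1 activates by splicing. It rose in 9 of 13 classes, more than any other of the 10 genes, and the rise was large in endothelial cells. There it was at 183, 174 and 188 CPM in sham and at 418, 424 and 435 in MCAO, from 5635 and 13072 UMIs. No library of one group came near the other (log2 fold change 1.23 ± 0.04, adjusted p = 1.96e-14). Microglia began near the endothelial level, at 197 ± 2.31, and reached 263 ± 8.20, a 1.33-fold rise. Astrocytes were lower in both groups, at 69.4 ± 5.32 and 106 ± 9.94. Microglia rose less than endothelial cells by 0.75 ± 0.05 on the log2 scale, and astrocytes by 0.61 ± 0.13 (adjusted p = 8.77e-16 and 0.000215).

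Among the other classes, neutrophils had the largest rise of Xbp1 that passed, from 95.6 ± 17.7 to 275 ± 36.0 (2.80-fold). Fibroblasts had the highest level in both groups, 297 ± 31.6 in sham and 589 ± 119 in MCAO, and Xbp1 was the only one of the 7 genes tested there that passed (adjusted p = 0.00381). Smooth muscle cells rose by 1.84-fold, pericytes by 1.62-fold, choroid plexus epithelium by 1.49-fold and border macrophages by 1.33-fold. In lymphocytes 1 MCAO library stood apart, with Xbp1 at 405 against 116 and 106 in the other MCAO libraries and 91.9 to 139 in sham, and the difference did not pass (adjusted p = 0.649). Monocyte-derived cells missed the threshold (0.38, adjusted p = 0.055) but passed in 5 of the alternatives, with an adjusted p of 0.00211 to 0.0496.

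Trib3, Chac1 and Asns are known targets of ATF4, and were the genes with the fewest UMIs. Asns (chr6:7675169-7693254) codes for asparagine synthetase, which makes asparagine and is a classical gene of the amino acid response. In endothelial cells, where its sham level was highest, it was at 15.2, 14.1 and 13.4 in sham and at 40.3, 40.2 and 43.2 in MCAO. The MCAO level was 2.9 times the sham level, with no overlap (log2 fold change 1.54 ± 0.08, adjusted p = 1.38e-11). In microglia it went from 0.807, 1.5 and 3.30 to 18.6, 20.7 and 18.5, from 30 UMIs to 460 (3.30 ± 0.25, adjusted p = 1.70e-09). Leaving out 1 library gave 2.97 to 4.06, the highest without sham library 3. The rise in microglia exceeded that in endothelial cells by 1.82 ± 0.28 on the log2 scale (adjusted p = 1.93e-06).

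Asns rose in all 5 classes where it could be tested, the other 3 being astrocytes, smooth muscle cells and monocyte-derived cells. Being tested depended largely on the MCAO counts. Of the 3 sham libraries, 0 were past the filter on low counts in astrocytes and monocyte-derived cells, 1 in smooth muscle cells and 2 in microglia. A fall could hardly have been tested in most of these classes, so the count of 5 adds no support. Astrocytes had 4 UMIs in sham and 91 in MCAO, and smooth muscle cells 18 and 138. Their log2 fold changes, 3.38 and 2.65, were 2.9 to 4.71 and 2.30 to 3.53 without 1 library, the highest without sham library 2 in astrocytes and sham library 3 in smooth muscle cells. Monocyte-derived cells had 2 and 273, a ratio of pooled levels of 15.9 with a 95% counting interval of 4.35 to 132, and the fitted log2 fold change of 4.03 depends on the small count that the fit adds. In lymphocytes none of the sham libraries had an Asns UMI and MCAO had 31. The pooled MCAO level was 4.92 times the level that 3 UMIs over the sham group would give. Such intervals cover counting error only, and values set against 3 UMIs cover that of the sham count alone. After MCAO, endothelial cells (41.2 ± 1.74), lymphocytes (40.2 ± 20.3) and monocyte-derived cells (37.9 ± 6.02) overlapped in Asns level.

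Trib3 (chr2:152337422-152344032) codes for a pseudokinase that ATF4 and CHOP induce and that dampens the response. In microglia it was at 0, 0.857 and 0.520 in sham and at 7.21, 7.38 and 8.57 in MCAO, from 7 UMIs to 183. The groups did not overlap (log2 fold change 4.02 ± 0.40, adjusted p = 3.40e-08). It was 3.50 to 4.70 without 1 library, highest without sham library 2, and 2.92 without cluster 12. In endothelial cells it was at 16.1, 12.4 and 11.1 in sham and at 12.8, 13.7 and 15.6 in MCAO, so the groups overlapped there. The change differed between these classes by 4.0 ± 0.40 on the log2 scale (adjusted p = 2.89e-11), and Trib3 was tested in no other class. Trib3 passed the filter on low counts in microglia through the MCAO libraries alone, so the microglial test and this difference add no support. In smooth muscle cells 3 sham UMIs stood against 24 in MCAO, a ratio of 6.52 (1.98 to 33.8). In lymphocytes 0 stood against 13, a pooled MCAO level 2.06 times what 3 UMIs over the sham group would give.

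Chac1 (chr2:119351229-119354381) codes for an enzyme that breaks down glutathione and is a late target of the ATF4 and CHOP branch. In astrocytes no sham library had a Chac1 UMI, and the MCAO libraries had 30 in all, at 4.13, 6.10 and 4.86 CPM. The pooled MCAO level was 4.47 times what 3 UMIs over the sham group would give. In microglia 3 UMIs in sham stood against 55 in MCAO, a ratio of 10.7 (3.49 to 53.7). In endothelial cells, the only class where Chac1 passed the filter, 36 UMIs stood against 43 and the groups overlapped (log2 fold change 0.27, adjusted p = 0.605). In neutrophils and smooth muscle cells the counts were 0 in sham and 10 and 12 in MCAO. The pooled MCAO levels were 1.41 and 3.26 times what 3 UMIs over the sham group would give. These values leave out the counting error of MCAO and are not lower bounds.

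Herpud1 (chr8:94386438-94395377) codes for an ER membrane protein of the pathway that removes misfolded proteins (ER-associated degradation). It rose in none of the 13 classes and fell in 2. In endothelial cells it was at 205, 202 and 213 in sham and at 156, 147 and 146 in MCAO, and the MCAO libraries were all lower (log2 fold change -0.46 ± 0.04, adjusted p = 4.29e-08). In border macrophages, which sit around vessels and in the meninges, it was at 148, 167 and 171 in sham and at 142, 121 and 115 in MCAO. That difference passed (-0.37 ± 0.12, adjusted p = 0.0245) and ended without sham library 2 or 3 or MCAO library 2 or 3, with DESeq2 (adjusted p = 0.166), with no filter on low counts, with doublets kept and at resolution 0.5.

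In microglia Herpud1 was at 280, 289 and 268 in sham and at 269, 258 and 270 in MCAO. The groups overlapped, and the log2 fold change of -0.07 ± 0.05 did not pass (adjusted p = 0.223). That value depended on which cells and which scaling were used: it was -0.21 with scaling by total UMIs (adjusted p = 0.000509) and 0.16 without cluster 12, whose microglia marker score was low (adjusted p = 0.00817). In astrocytes the levels were 113 ± 6.01 and 112 ± 3.0. Against the fall in endothelial cells, the change was higher by 0.45 ± 0.06 in microglia and by 0.45 ± 0.11 in astrocytes (adjusted p = 5.85e-09 and 0.00137).

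Sdf2l1, Pdia4 and Creld2 work in the ER lumen. Sdf2l1 (chr16:17130138-17132383) codes for a partner of the chaperone BiP and its co-chaperones. In microglia it was at 266, 274 and 273 in sham and at 685, 648 and 651 in MCAO, from 4169 and 15794 UMIs. The MCAO level was 2.44 times the sham level and the highest of all classes in MCAO (log2 fold change 1.29 ± 0.05, adjusted p = 9.18e-15). Endothelial cells, with a far lower level, rose by 2.78-fold, from 22.3 ± 2.25 to 62.1 ± 9.02, and astrocytes by 2.52-fold, from 21.5 ± 0.618 to 53.9 ± 12.3. The 3 rises were not told apart by the tests of the differences (adjusted p of 0.274 to 0.82), and the difference between microglia and endothelial cells was -0.13 ± 0.09.

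In all, Sdf2l1 rose in 7 of 12 classes and fell in 1. In pericytes it went from 32.8, 7.94 and 43.9 to 153, 141 and 102, with 12 UMIs in sham (2.16 ± 0.36, adjusted p = 2.75e-05). In border macrophages it rose from 212 ± 34.7 to 423 ± 44.8 (log2 fold change 1.0 ± 0.11). In monocyte-derived cells it was at 352, 392 and 214 in sham and at 243, 218 and 198 in MCAO. These groups overlapped, and the fall passed (-0.55 ± 0.16, adjusted p = 0.012) but did not without sham library 1 or 2 (adjusted p = 0.134 and 0.224), nor within the cluster that held most sham cells (adjusted p = 0.334). The change there differed from that in endothelial cells by -1.83 ± 0.14 (adjusted p = 1.86e-34). The SE comes from 1 fit over both classes and is below that of the fall itself. It therefore does not measure the spread of the monocyte-derived libraries alone. This difference was not refitted without single libraries or within that cluster.

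Pdia4 (chr6:47796141-47813430) codes for a protein disulfide isomerase. In microglia it was at 187, 185 and 191 in sham and at 336, 306 and 303 in MCAO, a 1.68-fold rise with no overlap (adjusted p = 1.71e-10). Endothelial cells rose by 1.41-fold (82.9 ± 3.80 to 117 ± 9.92) and astrocytes by 1.46-fold (119 ± 11.6 to 174 ± 10.4), the latter no longer passing when every cell was thinned to 1000 UMIs (adjusted p = 0.165). Border macrophages rose more than endothelial cells did, by 0.73 ± 0.14 on the log2 scale, from 110 ± 24.8 to 250 ± 22. Choroid plexus epithelium went the other way, with 126, 112 and 102 in sham and 98.1, 96.9 and 86.8 in MCAO (-0.27 ± 0.09, adjusted p = 0.0412), and lost the call without any 1 of 5 libraries (all but sham library 3), with DESeq2, with scaling by total UMIs and with doublets kept. Ependymal cells had the highest sham level, 358 ± 51.9, and did not pass (adjusted p = 0.858).

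Creld2 (chr15:88819646-88826683) codes for an ER-resident protein that is induced and secreted under ER stress. In microglia it was at 59.1, 59.6 and 63.8 in sham and at 184, 170 and 188 in MCAO. This 2.97-fold rise exceeded the rise in endothelial cells by 0.86 ± 0.08 and that in astrocytes by 0.86 ± 0.21 on the log2 scale (adjusted p = 1.97e-11 and 0.00123), and the difference from astrocytes did not pass without sham library 2. Endothelial cells went from 41.7 ± 3.02 to 70.7 ± 4.01. Astrocytes went from 16.5, 37.6 and 28.4 to 46.9, 46.2 and 38.3, and that call ended without sham library 1 (adjusted p = 0.152) and with DESeq2 (adjusted p = 0.102). Border macrophages, the other resident macrophages of the brain, rose by 2.65-fold, from 36.7 ± 7.19 to 98.5 ± 18.1.

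**Figure D3:**
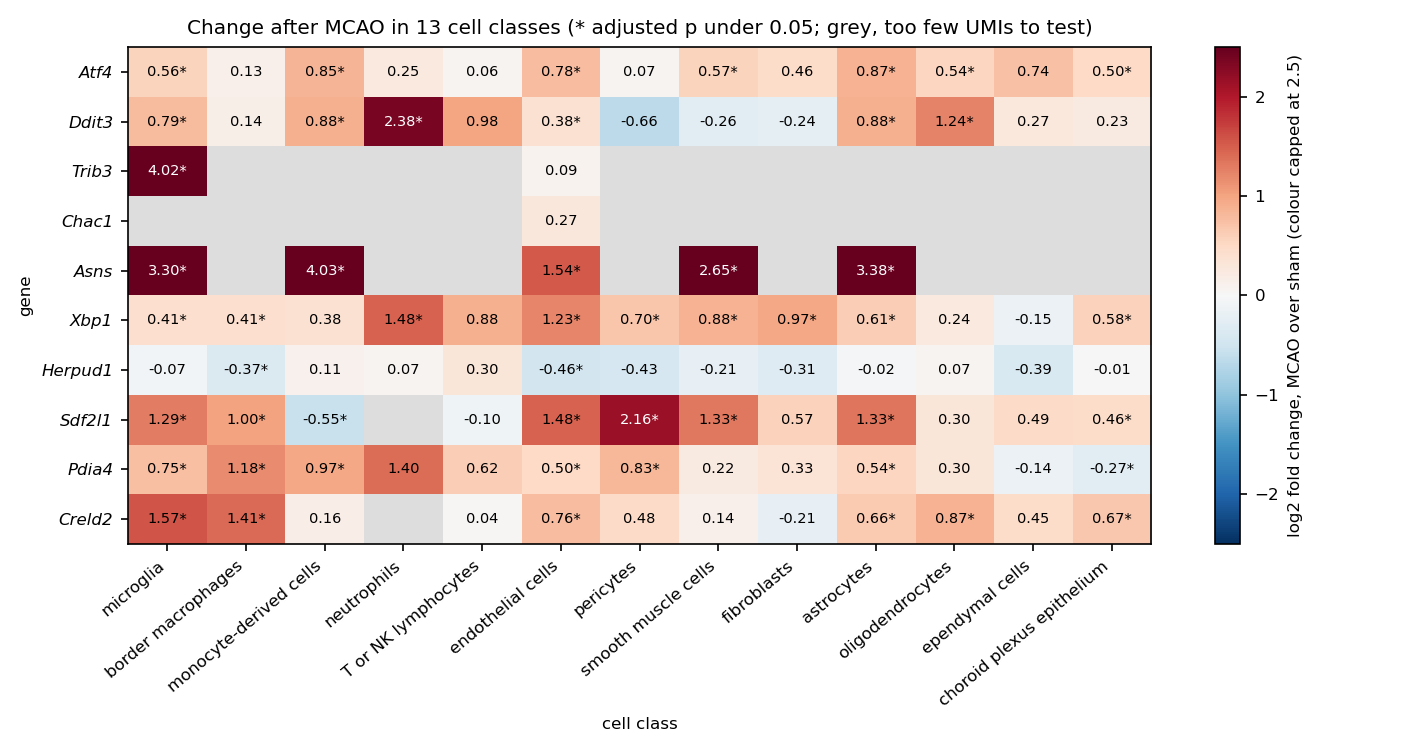
Log2 fold change, MCAO over sham, of the 10 genes (vertical axis) in 13 cell classes (horizontal axis), as numbers and as colour, red for higher and blue for lower in MCAO. A star marks an adjusted p under 0.05, and grey marks genes with too few UMIs to test. The Xbp1 line has 9 starred rises, and the Herpud1 line has 2 starred falls and no starred rise.

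The change itself was also compared between classes, in fits over both classes. Between microglia and endothelial cells it differed for 8 of 9 genes (6 with a higher and 2 with a lower change in microglia), where it differed for 40.7% of all genes. Without 1 library it differed for 7 to 8 genes. Between astrocytes and endothelial cells it differed for 4 of 8 genes (10.9% of all genes), and for 2 without sham library 1 or 3 or MCAO library 3. Asns lost the call in these 3 fits, and Ddit3 in all fits that left out 1 library except that without MCAO library 1. Between microglia and astrocytes it differed for 1 of 8, Creld2 (25.6% of all genes). Trib3 in microglia and Asns in astrocytes had passed the filter on low counts through MCAO libraries alone. Their differences from endothelial cells add no support to these counts.

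By class, the counts outside the 3 main classes were as follows. Border macrophages had 4 rises and 1 fall among 7 genes tested, where 31.5% of all genes tested changed. Monocyte-derived cells had 4 and 1 of 8, where 27.8% changed, and choroid plexus epithelium 4 and 1 of 7, where 13.8% changed. Smooth muscle cells had 4 rises of 8 (20.1% of all genes changed), pericytes 3 of 7 (14.8%), oligodendrocytes 3 of 7 (21.3%) and neutrophils 2 of 5 (15.3%). Fibroblasts had 1 rise of 7 (3.71% of all genes changed). None of 7 passed in lymphocytes (4.14%) or in ependymal cells (1.31%), classes with 28 to 90 and 35 to 76 cells per library. In lymphocytes 1 of the 7, Ddit3, had an unadjusted p under 0.05 (0.014), in ependymal cells none did, and DESeq2 also called none in either class.

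Monocyte-derived cells of cluster 14 numbered 1 in sham and 1130 in MCAO, and those of cluster 24 numbered 135 and 277. Within cluster 24 alone 3 of 7 genes tested rose (Atf4, Ddit3 and Xbp1) and none fell, where 276 of 3881 genes rose and 170 fell. Sdf2l1, which fell in the whole class, did not pass there (-0.66, adjusted p = 0.334). Pdia4, which rose in the whole class (0.97 ± 0.19), was at -0.03 there (adjusted p = 0.966). This comparison was added after the data were seen.

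Within microglia, the levels of these genes varied between the MCAO clusters. The clusters were made with these genes among all others, so the values are a description with no test. Cluster 12, led by Mmp12, Lpl and Spp1, had the lowest microglia marker score of these clusters (0.451), and none of its leading genes was a microglia marker. It had Trib3 at 16 ± 1.73, from 123 UMIs, against 3.28 to 3.92 in clusters 7, 8 and 22, and 0.490 in the sham cells of cluster 3. Herpud1 was 151 ± 17.7 in cluster 12 and 102 ± 9.49 in cluster 22, and 305 ± 4.59 and 342 ± 19.2 in clusters 7 and 8, against 292 ± 13.2 in sham. Cluster 8, which kept Tmem119 and P2ry12 among its leading genes, had the highest Ddit3 (136 ± 13.6) and the lowest Asns (8.33 ± 0.559) and Creld2 (113 ± 3.78) of the MCAO clusters. Cluster 22 had the lowest Ddit3 (25.3 ± 4.21), Atf4 (58.0 ± 10.7) and Xbp1 (165 ± 11.7) and the highest Sdf2l1 (797 ± 71.5). Ddit3, Atf4 and Xbp1 in cluster 22 were below their levels in sham cluster 3 (65.1, 126 and 206), while Creld2 there was 211 ± 12.4 against 63.7 ± 3.71.

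Among endothelial cells, cluster 5, led by Scgb3a1, Tmem252 and Ackr1 (a chemokine receptor known from venules), had the highest levels of several of the genes after MCAO. Xbp1 was 642 ± 25.9 there, against 284 ± 1.05 in cluster 2 and 277 ± 4.02 in cluster 13. Asns was 74.3 ± 7.20 in cluster 5, against 20.3 ± 1.78 and 17.8 ± 3.41. Atf4 was 172 ± 7.74 against 112 ± 3.50 and 85.9 ± 4.63, and Herpud1 was lowest in cluster 5, at 105 ± 3.29 against 188 ± 7.97 and 130 ± 12.7. A difference of this kind was present in sham cells too: cluster 21, led by Vwf and also holding Ackr1 among its top genes, had Xbp1 at 442 ± 33.0 and Asns at 29.6 ± 7.75 in sham, against 179 ± 8.09 and 13.9 ± 0.844 in cluster 1, led by Slco1a4. Trib3 in cluster 21 was at 12 to 47.8 in the sham libraries, from 45 UMIs.

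**Figure D4:**
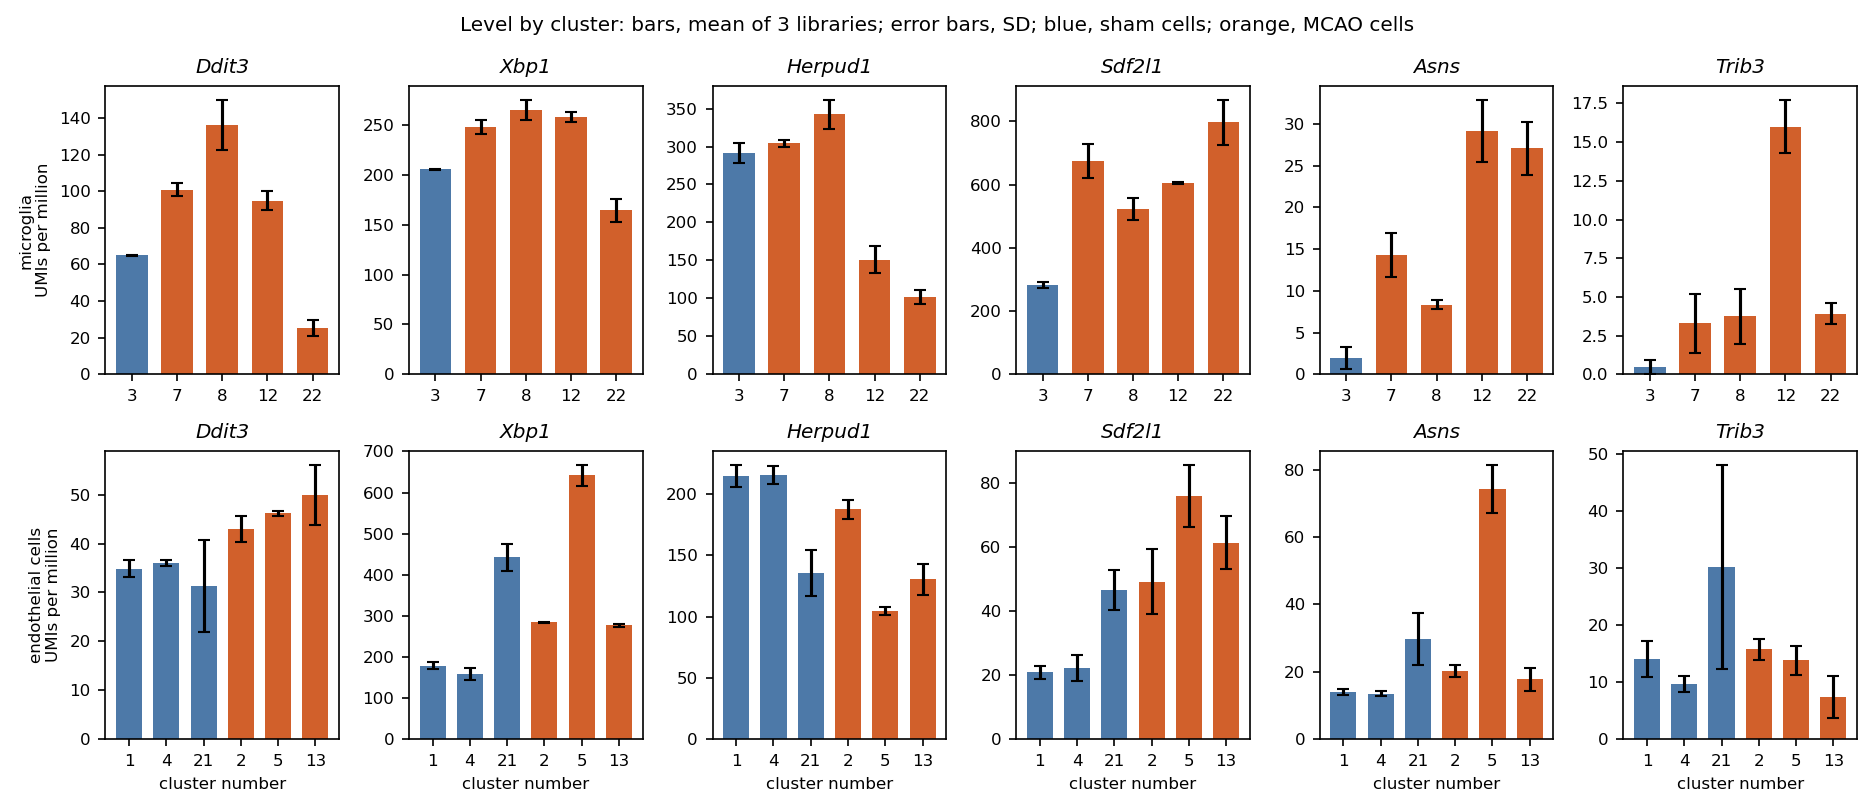
CPM (vertical axes) of 6 genes in the main clusters (horizontal axes, cluster number) of microglia, above, and endothelial cells, below. Bars are the mean of 3 libraries with SD, blue for sham cells and orange for MCAO cells of that cluster. Trib3 in microglia peaks in cluster 12 at 16, and Xbp1 and Asns in endothelial cells peak in cluster 5 at 642 and 74.3.

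Other genes of the pathway were counted from 4 lists. Among 16 ER chaperones and folding enzymes, 15 rose and none fell in microglia, 14 rose and 1, Dnajb9, fell in endothelial cells, and 9 of 15 rose in astrocytes. Their median log2 fold changes were 0.95, 0.61 and 0.56, beside -0.05, -0.03 and -0.02 over all genes tested. Of all genes tested, 30.0%, 24.0% and 11.7% rose in these classes. Hspa5, which codes for the chaperone BiP, was at 942, 953 and 916 in sham microglia and at 3177, 3122 and 3509 in MCAO. This was a 3.49-fold rise (log2 fold change 1.80 ± 0.05), and endothelial cells and astrocytes rose by 2.63-fold and 2.10-fold. Manf, a secreted ER protein, rose by 2.53-fold in microglia, and Pdia6, another disulfide isomerase, by 2.36-fold.

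Of the genes of the ATF4 and CHOP program, 21 of 28 rose and 3 fell in microglia, 22 of 30 rose and 2 fell in endothelial cells, and 14 of 30 rose and 2 fell in astrocytes. Of all genes tested, 30.0%, 24.0% and 11.7% rose, and 61.8%, 46.7% and 21.3% changed in either direction. In microglia the transcription factor gene Atf3 rose by 2.99-fold, Eprs and Gars, which code for tRNA synthetases, by 2.72-fold and 2.14-fold, and Cebpg, which codes for a dimer partner of ATF4, fell from 70.8 ± 10.5 to 42.0 ± 6.31. In endothelial cells Eif4ebp1, a brake on translation, rose by 2.63-fold, while the cationic amino acid transporter gene Slc7a1 fell from 373 ± 11 to 235 ± 8.88. In astrocytes the stress gene Nupr1 rose by 2.56-fold, and Phgdh, the first enzyme of serine synthesis, fell from 563 ± 15 to 432 ± 13.1. The amino acid transporter subunit gene Slc3a2 rose in astrocytes (1.67-fold) and fell in endothelial cells (0.924-fold).

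Of the sensors and phosphatase subunits, 3 rose and 2 fell of 9 in microglia and in endothelial cells, and 1 rose of 7 in astrocytes, where 61.8%, 46.7% and 21.3% of all genes changed. Ppp1r15a, whose product GADD34 reverses eIF2α phosphorylation, rose by 2.07-fold in endothelial cells and 2.04-fold in astrocytes. Of the genes of ER-associated degradation and translocation, the group to which Herpud1 belongs, 11 of 13 rose in microglia, 10 of 13 in endothelial cells and 4 of 13 in astrocytes, and 1 fell in each of the first 2 classes, in microglia Edem2 (189 ± 5.55 to 130 ± 8.42). Immediate early genes, which also respond to the handling of tissue, rose for 8 of 14 in microglia with 4 lower, 10 of 14 in endothelial cells with 1 lower, 11 of 14 in astrocytes and 12 of 14 in oligodendrocytes. Of all genes tested, 30.0% rose in microglia, 24.0% in endothelial cells and 11.7% in astrocytes, and 856 of 7670 rose in oligodendrocytes. Per the labels, cells were freed with the enzyme papain at 37 °C over 30 min, and the part of this handling in the results was not tested.

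**Figure D5:**
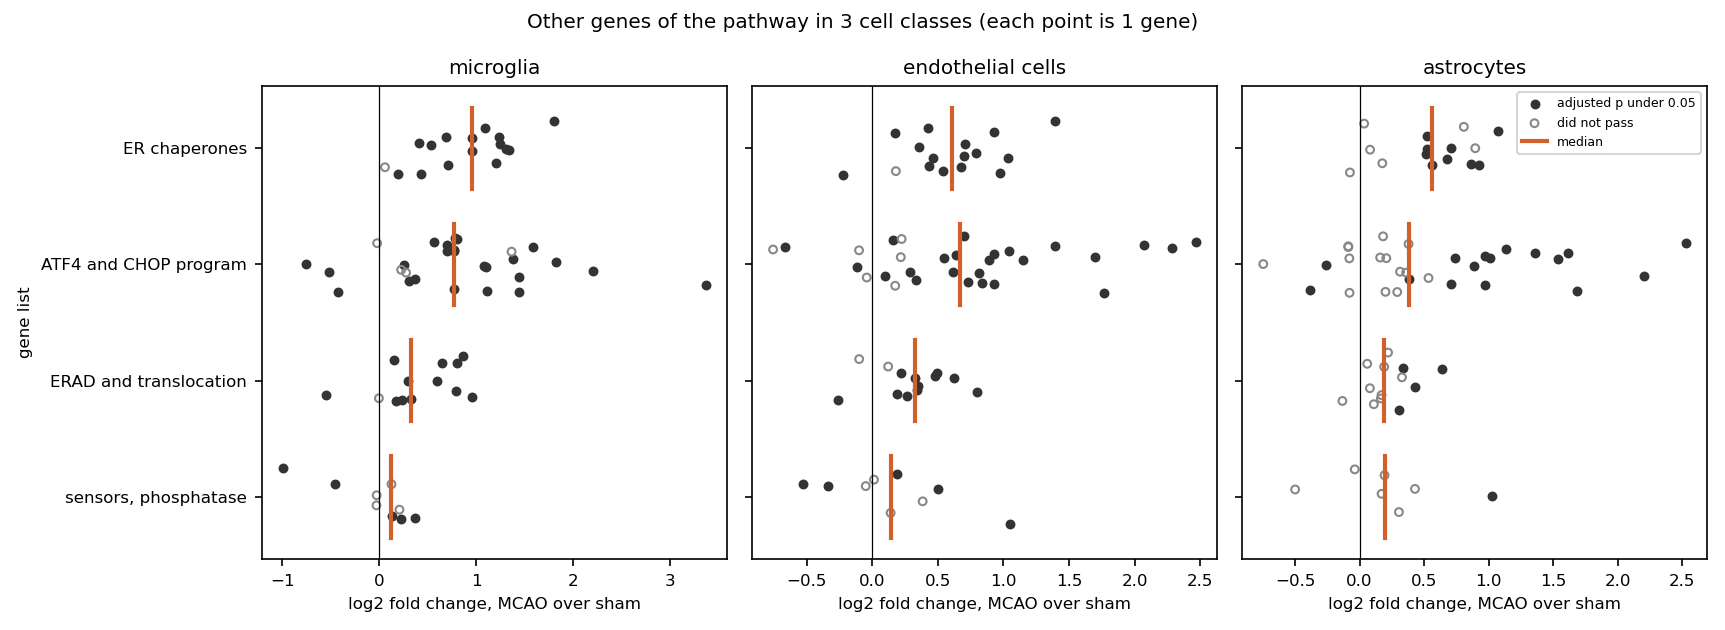
Log2 fold change, MCAO over sham (horizontal axes), of the genes of 4 pathway lists (vertical axis) in microglia, endothelial cells and astrocytes. Each point is 1 gene, filled where the adjusted p was under 0.05 and open where it was not, and the orange lines are list medians. The chaperone medians stand at 0.95, 0.61 and 0.56.

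Across the 78 profiles (13 classes in 6 libraries), the genes most like each of the 10 were found among 6482 genes by Pearson's r. The profiles share libraries and depth, so these values describe and do not test. Atf4 was most like Junb (0.87), Ier2 (0.84) and Ccnl1 (0.84), and Ddit3 like Gadd45b (0.68) and Ifrd1 (0.62). Xbp1 was most like Mgat2 (0.77) and Ifnar2 (0.74). Trib3 was most like Lrg1 (0.63), Ch25h (0.62) and Plaur (0.61), Chac1 like Serpina3n (0.63), Gfap (0.58) and Gm42418 (0.57), and Asns like Ch25h (0.67), Cdkn1a (0.67) and Gm42418 (0.66). Herpud1 was most like Dnajc1 (0.77), Tex261 (0.76) and Ext2 (0.76). Sdf2l1 was most like Calr (0.85), Npc2 (0.81) and Fcgr1 (0.80), Pdia4 like Rpn1 (0.85), Tspan31 (0.83) and Apex1 (0.82), and Creld2 like Hsp90b1 (0.81), Pdia6 (0.80) and Manf (0.79). Among the 10 genes themselves, the highest values were 0.72 for Pdia4 with Creld2 and 0.64 for Atf4 with Xbp1, and the lowest was -0.19 for Trib3 with Pdia4.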

How the data were processed

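The authors deposited 1 matrix of unnormalized UMI counts per library, with its barcode and gene names. Per the labels' protocols, papain-treated tissue was passed through a 40 µm strainer and cleared of myelin in 30% Percoll. Per the submitters' processing notes, Cell Ranger, STAR and mm10 were used, with versions and gene annotation not given in the sources used here.

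Barcodes with under 300 genes (15) or over 10% mitochondrial UMIs (1298) were removed, then 4557 predicted doublets (6.34% to 9.17% of a library), found by comparison with simulated doublets. Cells were clustered on 2000 variable genes and 30 components with leidenalg 0.10.2 at resolution 1, with no batch correction. Classes were named from fixed marker lists, with naming rules set after the clusters were seen. Counts were summed by class and library and tested with edgeR 4.0.16 (quasi-likelihood test, TMM scaling, its filter on low counts, Benjamini-Hochberg adjustment over all genes tested, threshold 0.05). The difference of a change between classes was tested as an interaction term with a term for each library. The fit was tested on simulated data first. Replicates of a group differed beyond sampling noise (chi-square over degrees of freedom of 1.18 to 4.95), and none was counted as a repeat. Technical repeats can also exceed sampling noise, so these values cannot tell them from separate animals.

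Alternatives were DESeq2 1.42.0, other scalings, no filter on low counts, a replicate block, leaving out each library, doublets kept, a mitochondrial limit of 20%, resolution 0.5 and cells thinned to 1000 UMIs. All 10 genes are named in every class. Other pathway genes were named by size: up to 8 highest and 4 lowest log2 fold changes that passed, no overlap of groups and 50 CPM or more on average. Like genes were the 3 highest correlations of log2(CPM + 1) among genes with a mean of at least 20, of which 2 are not reported here. The genes, lists and tests were chosen with earlier results of these data known. B cells and erythrocytes had under 20 cells in a library and were not tested.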

Additional observations from a re-analysis of the deposited data

Results flagged for a closer look

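Of 95 comparisons of a change between 2 cell classes, over 13 pairs of classes, 39 had an adjusted p under 0.05 in the test of the difference itself. Each value is the log2 fold change in the first class minus that in the second, and 12 of the pairs share the endothelial libraries, so their results are not independent. The share of all genes that differed is given for each pair. Trib3 in microglia and Asns in astrocytes and monocyte-derived cells passed the filter on low counts through MCAO libraries alone. Their differences from endothelial cells add no support. Only the pairs among microglia, endothelial cells and astrocytes were refitted without single libraries.

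Microglia minus endothelial cells (40.7% of all genes differed) gave -0.16 for Atf4, 0.46 for Ddit3, -0.75 for Xbp1, 4.0 for Trib3, 0.45 for Herpud1, 0.31 for Pdia4, 0.86 for Creld2 and 1.82 for Asns. Astrocytes minus endothelial cells (10.9%) gave 0.51 for Ddit3, -0.61 for Xbp1, 0.45 for Herpud1 and 1.90 for Asns. Microglia minus astrocytes (25.6%) gave 0.86 for Creld2.

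Border macrophages minus endothelial cells (11.4%) gave -0.60 for Atf4, -0.76 for Xbp1, -0.42 for Sdf2l1, 0.73 for Pdia4 and 0.70 for Creld2. Monocyte-derived cells minus endothelial cells (15.2%) gave -0.66 for Xbp1, 0.76 for Herpud1, -1.83 for Sdf2l1, 0.66 for Pdia4 and 2.73 for Asns. Of the monocyte-derived cells, 99.3% in sham lay in cluster 24 and 80.3% in MCAO lay in cluster 14. Within cluster 24 alone the changes of Sdf2l1 and Pdia4 did not pass. For neutrophils (2.64%) the difference was 2.20 for Ddit3, and for T or NK lymphocytes (1.36%) it was -1.44 for Sdf2l1. In lymphocytes Sdf2l1 was at 136, 319 and 107 in sham, and its own change of -0.10 ± 0.33 did not pass. The difference comes from 1 fit over both classes, so its test does not measure the spread of the lymphocyte libraries alone. Without the library term no gene differed for lymphocytes.

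Choroid plexus epithelium minus endothelial cells (10.9%) gave -0.61 for Xbp1, 0.50 for Herpud1, -0.98 for Sdf2l1 and -0.72 for Pdia4. Ependymal cells (1.74%) gave -1.36 for Xbp1. Oligodendrocytes minus endothelial cells (9.9%) gave 0.90 for Ddit3, -0.93 for Xbp1, 0.58 for Herpud1 and -1.14 for Sdf2l1. Pericytes (3.43%) gave -0.96 for Ddit3, and smooth muscle cells (10.9%) gave -0.65 for Ddit3, -0.36 for Xbp1, -0.64 for Creld2 and 1.12 for Asns. In fibroblasts (1.4%) none of 7 genes differed in edgeR's quasi-likelihood test, with 2 at an unadjusted p under 0.05. Xbp1 differed in 8 of its 13 pairs, the most of the 10 genes, and Ddit3 in 6 of 13.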

How the results depend on the processing

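Over 65 gene-by-class results and 945 alternative values, 890 kept direction and side of the threshold, 39 lost the call, 9 gained it and 7 changed sign. The numbers of the 10 genes called that moved most, by their ratio to the main fit, were these. Cells thinned to 1000 UMIs gave 4 of 7 tested in astrocytes, and no filter on low counts gave 1 in lymphocytes. DESeq2 gave 3 in choroid plexus epithelium. Doublets kept gave 4 in neutrophils and 5 in oligodendrocytes. The monocyte-derived cluster with most sham cells gave 3. Smaller moves are not listed in full. Among them, DESeq2 gave 2 in oligodendrocytes and in pericytes, against 3 in the main fit of each. No filter gave 6 in smooth muscle cells, against 4. Leaving out 1 library gave 2 to 5 in choroid plexus epithelium, 3 to 5 in monocyte-derived cells, 4 to 6 in border macrophages and 2 to 4 in oligodendrocytes. It gave 2 to 3 in pericytes, 4 to 5 in smooth muscle cells, 6 to 7 in astrocytes and 8 to 9 in microglia. Without the low-scoring microglia cluster 9 of 9 genes tested rose in microglia, where 3285 of 11399 genes rose and 3399 fell. Differences between classes are listed by the same ratio. Without the library term 0 genes differed for lymphocytes and 2 for astrocytes against endothelial cells. With scaling by total UMIs 3 differed for monocyte-derived cells and 2 for pericytes. Leaving out 1 library gave 7 to 8 for microglia and 2 to 4 for astrocytes against endothelial cells and 0 to 1 for microglia against astrocytes. Sign changes were Herpud1 in astrocytes (0.0015 with no filter, 0.0576 thinned, -0.0482 to 0.0254 without 1 library), Chac1 and Trib3 in endothelial cells (-0.12 to 0.66 and -0.0283 to 0.26 without 1 library), Herpud1 in microglia (0.16 without the low-scoring cluster) and Pdia4 in monocyte-derived cells (-0.0254 in 1 cluster). The causes were not tested. With a replicate block all 65 results were the same, with 8 genes called in microglia, 8 in endothelial cells and 7 in astrocytes. Same-numbered libraries correlated at -0.13 to 0.05, and only libraries numbered 2 correlated best with their own number. The labels give no pairing, and such weak correlations cannot exclude one. Low UMI counts limited Trib3, Chac1 and Asns most.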
